A study of Homo sapiens with 12 samples.

Results

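The genes described here are those whose cytoplasmic RNA told apart a pair of human HEK293 cell lines, one rebuilt with full-length PGC-1α (WT-res) and one with PGC-1α lacking its RS domain (ΔRS-res), and that lie outside the chromosome stretches on which many neighbouring genes were shifted together. They were chosen by the 6 cytoplasmic libraries alone. A gene qualified when its mean count there was 100 or more and the lowest value of one line exceeded 2 times the highest value of the other, in CPM (counts per 1000000 of the library total). Of 61860 genes, 14559 reached the count and 68 (0.467%) were separated. Of these 68, 29 lay in the stretches left out (chromosome 2 from 173 to 242.2 Mb, chromosome 5 from 0 to 50.8 Mb and chromosome 7 from 141.7 to 159.4 Mb of GRCh38), and DDX19B was set aside by name (PPARGC1A, the other gene so set aside, was not among the 68). The remaining 38 comprised 20 genes higher in WT-res and 18 higher in ΔRS-res. Because the cytoplasmic values chose them, those values are given as a description, and tests were run on whole-cell RNA only.

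Both lines derive from Flp-In T-REx HEK293 cells, a human embryonic kidney line with a single integration site. Doxycycline (1 µg/ml for 6 days) induced in both lines chained miRNAs against endogenous PGC-1α together with a FLAG-tagged, miRNA-resistant PGC-1α, full length in WT-res and without the RS domain in ΔRS-res. Each line is 1 clone grown from a picked colony, so that the RS domain and the history of a clone cannot be told apart, and no line without the construct is compared here. Whole-cell and cytoplasmic RNA were sequenced from 3 replicates per line, a cytoplasmic library coming from 6 pooled wells and a whole-cell library from 1 well, giving 12 libraries with totals between 90.3 M and 144.6 M counts. One library, labelled WT-res whole-cell replicate 3, goes against its label. DDX19B, used here only as a check because it marks the lines, stood at 12.6 and 12.9 CPM in WT-res whole-cell replicates 1 and 2, at 0.196 CPM in replicate 3, and at 0.267, 0.267 and 0.226 CPM in ΔRS-res. Whole-cell results are therefore given without this library, and the value with all 6 libraries as labelled stands beside the members described. Without it WT-res has 2 whole-cell libraries and ΔRS-res 3.

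PGC-1α is a transcriptional co-activator of mitochondrial and metabolic genes that works through nuclear receptors and other DNA-bound factors, and it carries near its carboxyl end an RS domain rich in serine and arginine. The genes described below include a replication-dependent histone pair, a fatty acid elongation enzyme, zinc finger and other nuclear proteins, and membrane proteins such as EPHA6, NALCN and PCDH10. HEK293 cells themselves express neuronal intermediate filaments beside epithelial keratins.

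In whole-cell RNA, which the choice did not use, all 38 genes kept the direction of the cytoplasm. With the 6 libraries as labelled, edgeR's quasi-likelihood test called 0 of 38 at an adjusted p under 0.05, as it called 0 of 26793 genes in all (0.0%). At an unadjusted p under 0.05 there were 24 of the 38, against 12.5% of all genes. With a block for the replicate number 7 of the 38 were called, all lower in ΔRS-res, against 7.97% of all genes, and the Wald test of DESeq2 called 17 against 3.96%. Without the library that goes against its label, 33 of the 38 were called. Of these, 17 were lower in ΔRS-res, where 1.18% of all genes were called lower, and 16 were higher, where 0.886% were called higher. With the block in addition, all 38 were called, against 16.6% of all genes, and DESeq2 called 36 against 9.14%. The whole-cell libraries come from the same lines as the cytoplasmic ones and share cell pellet identifiers with them in the study's sample sheet, so that these calls speak of separate libraries and not of separate clones. Where nothing is said otherwise, adjusted p-values below are those of edgeR's quasi-likelihood test in whole-cell RNA with WT-res replicate 3 left out, over 26762 genes. With all 6 libraries the adjusted p of the 38 genes lay between 0.213 and 0.9, so that every edgeR call of a single member below rests on leaving that library out, on the block or on both.

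For most members the separation itself recurred in whole-cell RNA only without the library labelled WT-res replicate 3. That library was singled out by DDX19B, itself among the 68 separated genes, and lay nearer to ΔRS-res for 36 of the 38. Leaving it out favours separation of the members. Neither the calls above nor the counts below without it are therefore independent of that choice. Of the 38 genes, 31 had a mean whole-cell count of 100 or more. With the library labelled WT-res replicate 3 none of these 31 was separated by more than 2 times, nor was any of 15174 genes at that count (0.0%), and 13 of the 31 did not overlap between the lines, against 25.4% of all. Without it 26 of 31 were separated by more than 2 times, against 0.56% of all, and 31 of 31 did not overlap, against 51.5%. Fold values here are ratios of mean CPM in which a library under 3 counts is set to 3. The median fold was 4.22 in the cytoplasm and 4.37 in whole-cell RNA without that library, where the median of all genes, taken without regard to direction, was 1.08 and 1.12. With all 6 whole-cell libraries the members' median was 2.22.

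**Figure D1:**
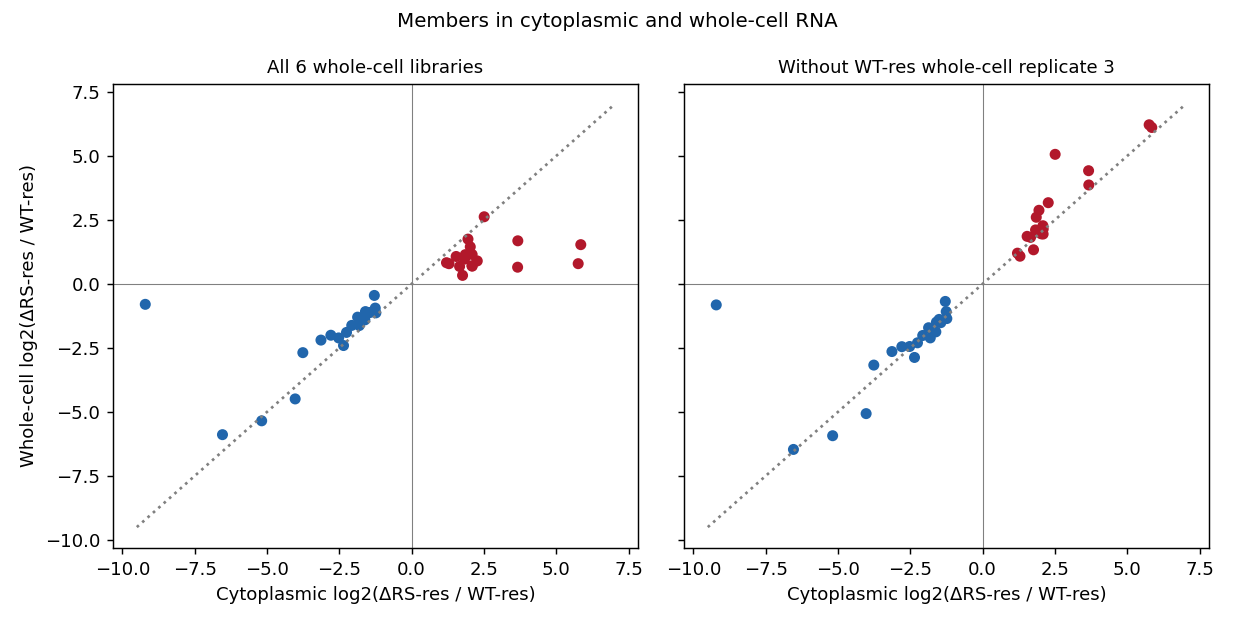
Log2 ratio of ΔRS-res to WT-res for each of the 38 genes, cytoplasm on the x axis and whole-cell RNA on the y axis, with all 6 whole-cell libraries (left) and without WT-res whole-cell replicate 3 (right). Blue points are genes higher in WT-res, red points genes higher in ΔRS-res, and the dotted line marks equal ratios. On the right ENSG00000263244 (far left) and ENSG00000278996 lie farthest from that line, while on the left the red points lie below it apart from ENSG00000278996.

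HACD4 belongs to the dehydratases that carry out a step of very-long-chain fatty acid elongation in the endoplasmic reticulum. It lies on chromosome 9 (20999509 to 21031640, minus strand). In WT-res cytoplasm it stood at 2.48, 1.81 and 2.46 CPM, and in ΔRS-res at 0, 0.0227 and 0 CPM. That is 810 counts in the WT-res libraries together against 3 in ΔRS-res, a ratio of 282, whose 95% interval of 96.1 to 1369 (exact binomial) describes counting error only and is no test, since these counts chose the gene. The line groups did not overlap, and ΔRS-res was at the edge of detection. In whole-cell RNA it stood at 2.18 and 2.72 CPM in WT-res replicates 1 and 2, at a single count in the library labelled WT-res replicate 3, and at 0 counts in each ΔRS-res library. Without that library the level was at least 88.4-fold lower in ΔRS-res (adjusted p = 0.00131), and with all 6 libraries it was not called without the block (adjusted p = 0.24) and was called with it (adjusted p = 0.0210). A single transcript, HACD4-202, carried 99.4% of its counts in WT-res cytoplasm.

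The other genes of the elongation pathway had far smaller differences. Of the 14 genes of the list (the elongases ELOVL1 to ELOVL7, the reductases HSD17B12, TECR and TECRL, and the dehydratases HACD1 to HACD4), 13 were tested in whole-cell RNA and HACD4 alone was called. With the block in addition ELOVL5, an elongase of polyunsaturated fatty acids, was called as well, with a small difference (log2 fold change -0.17, adjusted p = 0.0319, and 0.18 without the block). The median log2 fold change of the list was -0.08, against -0.01 for all genes tested. HACD3 stood at 405 and 413 CPM in WT-res whole-cell replicates 1 and 2, and at 398, 406 and 384 CPM in ΔRS-res (log2 fold change -0.08, SE 0.06, adjusted p = 0.53). HACD1 had a log2 fold change of 0.13 (SE 0.20, adjusted p = 0.76, -0.10 with the block and -0.08 with all 6 libraries) and HACD2 one of -0.10 (SE 0.08, adjusted p = 0.52). CPM is not scaled by length, so that levels of different genes are not compared.

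The window from 250 bases before to 50 bases after the RefSeq start of HACD4 is shown because the gene went from expressed to almost absent between the lines (GRCh38.p14, chr9:21031591-21031890, minus strand). Capitals mark CG dinucleotides, of which it holds 24. The windows of ZNF22 (chr10:45000673-45000972, plus strand, 25 CG) and EPHA6 (chr3:96814344-96814643, plus strand, 30 CG), the genes with the widest gaps in the other direction, are set beside it.
HACD4: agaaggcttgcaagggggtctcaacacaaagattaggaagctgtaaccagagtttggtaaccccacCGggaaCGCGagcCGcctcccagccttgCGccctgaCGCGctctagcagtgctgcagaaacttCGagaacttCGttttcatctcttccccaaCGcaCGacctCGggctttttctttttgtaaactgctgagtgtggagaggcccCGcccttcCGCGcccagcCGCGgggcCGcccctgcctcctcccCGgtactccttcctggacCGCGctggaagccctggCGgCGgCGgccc
ZNF22: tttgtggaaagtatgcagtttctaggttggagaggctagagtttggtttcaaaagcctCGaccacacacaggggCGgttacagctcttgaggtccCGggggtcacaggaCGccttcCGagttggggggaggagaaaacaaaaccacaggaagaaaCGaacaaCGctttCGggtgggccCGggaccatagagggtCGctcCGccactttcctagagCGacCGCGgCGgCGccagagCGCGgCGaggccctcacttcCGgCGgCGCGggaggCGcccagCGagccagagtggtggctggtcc
EPHA6: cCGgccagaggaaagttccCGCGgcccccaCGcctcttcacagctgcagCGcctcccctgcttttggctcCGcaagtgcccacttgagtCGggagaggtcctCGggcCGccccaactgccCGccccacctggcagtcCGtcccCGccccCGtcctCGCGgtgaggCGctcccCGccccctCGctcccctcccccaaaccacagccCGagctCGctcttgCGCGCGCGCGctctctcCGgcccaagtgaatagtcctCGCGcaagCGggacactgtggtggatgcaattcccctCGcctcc

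RefSeq windows were found for 27 of the 38 genes. They held a median of 23 CG dinucleotides, against 14 over the first window of each of 27305 genes. Those 27305 were not limited to genes that reached the count, as the members were, so the medians are not like for like. The 13 windows of genes higher in WT-res had a median of 11 and the 14 of genes higher in ΔRS-res a median of 26. The response element of oestrogen-related receptors (TCAAGGTCA, either strand), a family of PGC-1α partners, was in 0 of 27 windows and in 0.359% of all. These letters were searched only within the window, and methylation was not measured.

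A histone pair was also lower in ΔRS-res. H2AC8 and H2BC8 encode histones H2A and H2B, are transcribed away from each other in the large histone cluster of chromosome 6, and lie at 26216921 to 26217437 (plus strand) and 26216200 to 26216688 (minus strand). H2AC8 stood at 16.7, 15.3 and 16.8 CPM in WT-res cytoplasm and at 0.604, 0.501 and 0.236 CPM in ΔRS-res. H2BC8 stood at 5.66, 6.84 and 5.20 CPM in WT-res cytoplasm and at 0.387, 0.478 and 0.222 CPM in ΔRS-res. Both were thus low but detected in ΔRS-res, 36.4-fold and 16.3-fold below WT-res. In whole-cell RNA H2AC8 stood at 16.1 and 17.1 CPM in WT-res replicates 1 and 2, at 0.0835 CPM in the library labelled replicate 3, and at 0.294, 0.362 and 0.161 CPM in ΔRS-res. Without that library its log2 fold change was -5.97 (SE 0.25, adjusted p = 0.000106), and that of H2BC8 was -5.10 (SE 0.24, adjusted p = 0.000176). With all 6 libraries the log2 fold changes were -5.39 for H2AC8 and -4.53 for H2BC8, called under the block (adjusted p = 0.0333 and 0.0386) and not without it (adjusted p = 0.217 for both).

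The stretch between the pair is 232 bases long and serves both genes as upstream sequence, for which reason it is shown (GRCh38.p14, chr6:26216689-26216920, plus strand, from the H2BC8 side to the H2AC8 side). Capitals mark the CCAAT box, the TATA box as TATAAA and the octamer ATGCAAAT, searched on both strands, and none of the matches overlap.
H2BC8-H2AC8: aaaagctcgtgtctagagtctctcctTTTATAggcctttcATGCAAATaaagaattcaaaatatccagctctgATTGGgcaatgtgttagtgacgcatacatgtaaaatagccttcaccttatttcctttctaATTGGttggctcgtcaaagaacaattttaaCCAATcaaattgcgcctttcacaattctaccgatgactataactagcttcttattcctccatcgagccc
It holds 3 CCAAT matches, 1 TATAAA match read towards H2BC8, with its nearer edge 27 bases from the H2BC8 start, and 1 octamer. Over all windows of 300 bases, CCAAT occurred in 35.7%, TATAAA in 12.0% and the octamer in 1.8%. A match is a description of the letters and not a shown binding site. The other histone genes of the cluster had smaller differences. Among 38 histone genes between 26 and 28 Mb that reached the count, the 36 others had cytoplasmic log2 ratios from -0.72 (H2BC10) to 0.59 (H2AC15) with a median of 0.08. Their whole-cell log2 ratios of mean CPM, WT-res replicate 3 left out, ran from -0.95 (H2BC10) to 0.22 (H2AC16) with a median of -0.07, the next lowest being H1-3 (-0.71) and H1-6 (-0.61). The library preparation removed ribosomal RNA and did not select poly(A) tails, so that histone mRNAs, which lack them, were retained.

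**Figure D2:**
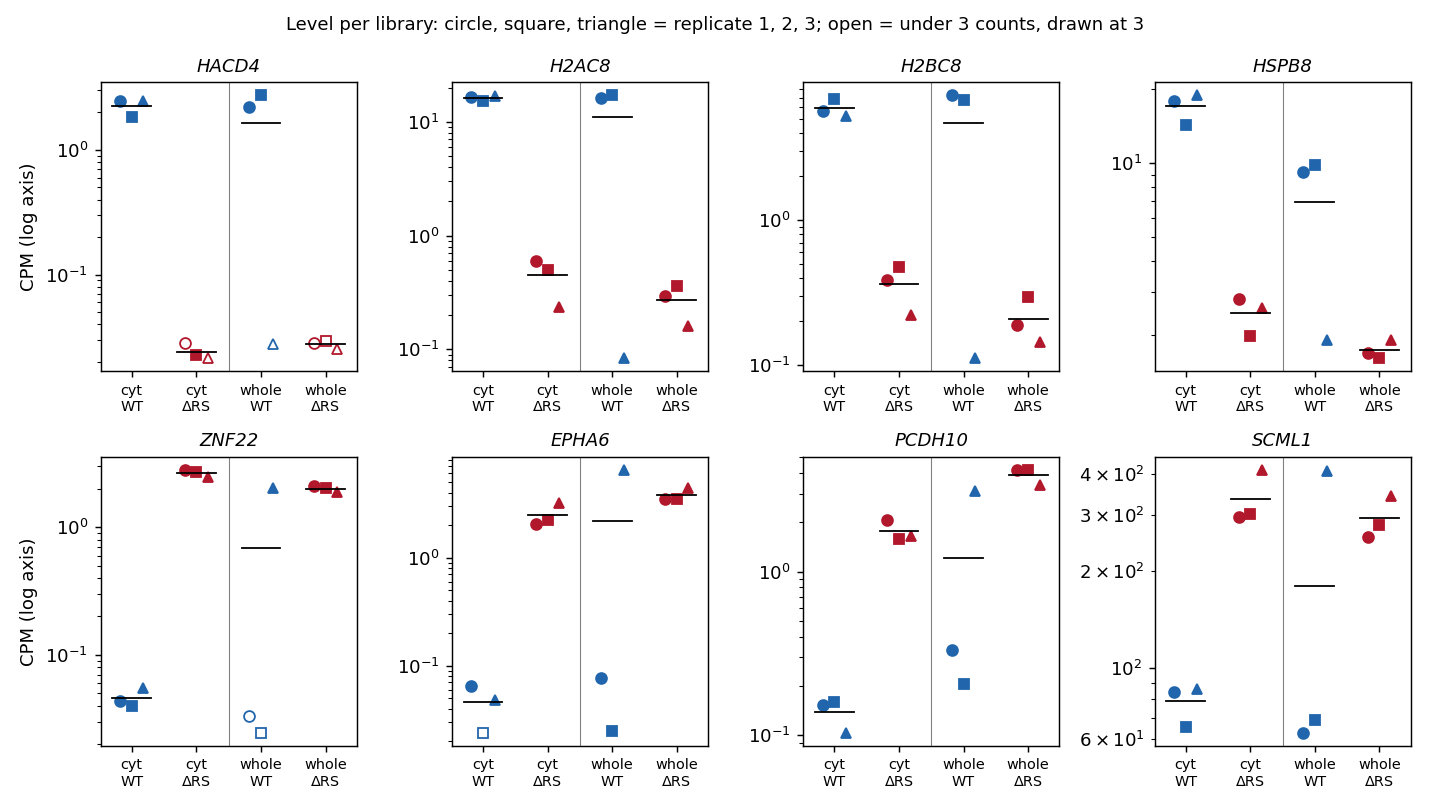
Level of 8 of the genes in CPM on a log axis, in cytoplasmic (cyt) and whole-cell RNA of WT-res (blue) and ΔRS-res (red). Circles, squares and triangles are replicates 1, 2 and 3, black bars are means, and open symbols are libraries under 3 counts drawn at 3 counts. In each panel the whole-cell WT-res triangle sits nearer to the red whole-cell points than to the other blue ones.

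Further genes higher in WT-res had differing roles. HSPB8, a small heat shock protein that acts in chaperone-assisted autophagy, stood at 18.0, 14.4 and 18.9 CPM in WT-res cytoplasm and at 2.82, 1.99 and 2.58 CPM in ΔRS-res. THNSL2, related to threonine synthase, stood at 3.90, 1.997 and 3.25 CPM against 0.113, 0.182 and 0.379 CPM. ATL3, a GTPase that fuses tubules of the endoplasmic reticulum, stood at 4.08, 3.04 and 4.32 CPM against 0.358, 0.341 and 0.601 CPM. These genes fell in whole-cell RNA, by 2.48 for HSPB8 (adjusted p = 0.000355), by 3.20 for THNSL2 (adjusted p = 0.000306) and by 2.67 for ATL3 (adjusted p = 0.0011) on the log2 scale. SLC2A3, the glucose transporter GLUT3, stood at 16.5 and 15.6 CPM in WT-res whole-cell replicates 1 and 2 and at 5.14, 4.62 and 4.94 CPM in ΔRS-res (log2 fold change -1.74, SE 0.10, adjusted p = 0.00051). ALPL, tissue-nonspecific alkaline phosphatase, fell by 2.89 (adjusted p = 0.00223). Also called lower were MYO7A, an unconventional myosin of sensory hair cells (-1.90, adjusted p = 0.00281), and RAC2, a small GTPase best known from blood cells (-2.32, adjusted p = 0.0134). As labelled, the 6 libraries gave log2 fold changes of -2.04 for HSPB8, -2.71 for THNSL2, -2.22 for ATL3, -1.33 for SLC2A3, -2.42 for ALPL, -1.43 for MYO7A and -1.92 for RAC2. The most abundant transcript of THNSL2, the retained-intron THNSL2-212, held 31.9% of its counts in WT-res cytoplasm, whereas RAC2, SLC2A3 and HSPB8 were carried by their main coding transcript, with 98.4%, 93.4% and 81.6%.

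HLA-DOA and HLA-DRB5, of the immune region of chromosome 6, had small gaps. HLA-DOA, a class II chain that modulates peptide loading, stood at 1.41, 1.09 and 1.47 CPM in WT-res cytoplasm and at 0.387, 0.493 and 0.437 CPM in ΔRS-res, and was lower in whole-cell RNA (log2 fold change -1.53, SE 0.23, adjusted p = 0.0203). HLA-DRB5 stood at 1.89, 1.60 and 1.69 CPM against 0.693, 0.690 and 0.739 CPM, and had whole-cell log2 fold changes of -0.72 without the block (adjusted p = 0.0894) and -0.67 with it (adjusted p = 0.0250). It is nearly identical in parts to HLA-DRB1, with which reads could have been exchanged, and HLA-DRB1 itself had a cytoplasmic log2 ratio of -0.59. The other class II genes that reached the count had ratios of the same sign, -0.53 for HLA-DQB1, -0.29 for HLA-DPA1, -0.13 for HLA-DPB1 and -0.12 for HLA-DMB. In the fit of all 6 libraries the whole-cell log2 fold changes were -1.11 for HLA-DOA and -0.48 for HLA-DRB5.

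Nuclear proteins were found in both directions. ZNF22, a zinc finger protein on chromosome 10 (45000923 to 45005326), stood at 0.0435, 0.0399 and 0.0553 CPM in WT-res cytoplasm and at 2.81, 2.71 and 2.47 CPM in ΔRS-res, from 4, 5 and 8 counts against 298, 358 and 345. In whole-cell RNA it had 2 counts in each of WT-res replicates 1 and 2 and 217 in the library labelled replicate 3, against 223, 206 and 221 in ΔRS-res. It was thus close to absent in WT-res, and the library labelled WT-res replicate 3 matched ΔRS-res. Without that library it was called (adjusted p = 0.000111), and with all 6 it was not (adjusted p = 0.694). ZNF730 went the other way, at 1.95, 1.85 and 2.13 CPM in WT-res cytoplasm against 0.236, 0.379 and 0.415 CPM, and fell by 2.48 in whole-cell RNA (adjusted p = 0.0126). ZNF442 had a small gap and whole-cell log2 fold changes of -1.12 without the block (adjusted p = 0.0588) and -1.07 with it (adjusted p = 0.0221). These were 3 of 419 numbered ZNF genes that reached the count, and with ZNF783, which lay inside a stretch left out, 4 of 419 were separated (0.955%, against 0.467% of all genes). In whole-cell RNA 18 ZNF genes were called lower and 5 higher of 455 tested, where 1.18% and 0.886% of all genes were. Of these, 5 lower and 1 higher lay in the stretches left out, and ZNF730 and ZNF22 are members. Outside both, 12 were lower and 3 higher of 438, where 0.415% and 0.61% of all such genes were. The list of 455 had a median log2 fold change of -0.12 against -0.01 for all genes. ZIC1, a zinc finger factor of the developing cerebellum, fell by 2.03 (adjusted p = 0.0145). The fits with all 6 libraries gave log2 fold changes of -2.15 for ZNF730, -0.98 for ZNF442 and -1.64 for ZIC1.

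EPHA6 led the cell-surface genes that were higher in ΔRS-res. It is a receptor for ephrins and lies on chromosome 3 (96814581 to 97761532). It stood at 0.0652, 0 and 0.0484 CPM in WT-res cytoplasm and at 2.06, 2.22 and 3.17 CPM in ΔRS-res. In whole-cell RNA it stood at 0.0775 and 0.0246 CPM in WT-res replicates 1 and 2, at 6.48 CPM in the library labelled replicate 3, and at 3.45, 3.51 and 4.43 CPM in ΔRS-res. The library that goes against its label was thus above all ΔRS-res libraries. Without it the log2 fold change was 6.25 (SE 0.37, adjusted p = 0.000472), and with it the adjusted p was 0.892. PCDH10, a protocadherin outside the gene clusters, stood at 0.152, 0.160 and 0.104 CPM in WT-res cytoplasm and at 2.06, 1.59 and 1.65 CPM in ΔRS-res (whole-cell log2 fold change 3.86, SE 0.24, adjusted p = 0.000676). SLITRK5, a synaptic adhesion protein, stood at 0.185, 0.0879 and 0.201 CPM against 1.56, 1.65 and 2.80 CPM (4.40, SE 0.25, adjusted p = 0.000447). With all 6 libraries, where the library against its label counts as WT-res, the log2 fold changes were 0.74 for EPHA6, 1.64 for PCDH10 and 0.61 for SLITRK5 and none was called.

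NALCN, the sodium leak channel that sets resting potential in neurons, stood at 0.435, 0.440 and 0.574 CPM in WT-res cytoplasm and at 1.94, 2.21 and 2.83 CPM in ΔRS-res, and rose by 3.14 in whole-cell RNA (adjusted p = 0.00314). Its most abundant transcript differed between lines, NALCN-201 holding 64.3% of counts in ΔRS-res whole-cell RNA and 2.27% in WT-res replicates 1 and 2, which had few counts. NECTIN3, an adhesion protein, rose by 2.23 (adjusted p = 0.00203). CEND1, a neuronal differentiation protein, stood at 1.60, 1.81 and 1.69 CPM against 7.43, 7.49 and 6.83 CPM in cytoplasm and rose by 1.91 (adjusted p = 0.00264). NAV3, a neuron navigator protein, rose by 2.54 (adjusted p = 0.00693), and GRIK3, a kainate receptor subunit, by 1.17 (adjusted p = 0.00679). PPP1R14A, an inhibitor of myosin phosphatase, rose by 2.09 (adjusted p = 0.00576). It overlaps SPINT2 on the opposite strand, whose cytoplasmic log2 ratio was 0.02, and whether counting used the strand is not given in the sources used here. VAT1L had whole-cell log2 fold changes of 1.05 without the block (adjusted p = 0.055) and 1.14 with it (adjusted p = 0.0146). Under the labels as given, all 6 libraries gave log2 fold changes of 0.85 for NALCN, 0.66 for NECTIN3, 1.11 for CEND1, 1.09 for NAV3, 0.79 for GRIK3, 0.93 for PPP1R14A and 0.75 for VAT1L. None of them was called by edgeR's quasi-likelihood test, while the Wald test of DESeq2 called GRIK3.

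Of the 18 genes higher in ΔRS-res, 5 lie on chromosome X. SCML1, RAI2, HDX, GK and AMOT were 5 of 467 X-linked genes that reached the count (1.07%, against 0.467% of all genes, stretches included, and 38 of 14039 outside the stretches and named exceptions). The median cytoplasmic log2 ratio of those 467 was 0.03, as it was (0.03) over the genes outside the stretches. SCML1, related to Polycomb proteins, had the highest mean count of the 38. It stood at 84.5, 65.3 and 86.3 CPM in WT-res cytoplasm and at 294, 302 and 413 CPM in ΔRS-res, and in whole-cell RNA at 62.9 and 69.0 CPM in WT-res replicates 1 and 2, at 409 CPM in the library labelled replicate 3, and at 256, 278 and 342 CPM in ΔRS-res. Its whole-cell log2 fold change was 2.12 (SE 0.14, adjusted p = 0.000852), and 0.65 with all 6 libraries (adjusted p = 0.774). SCML1-203 held 55.3% of its counts in WT-res cytoplasm and 50.0% in ΔRS-res, and SCML1-204 29.6% and 26.7%. A retained-intron transcript, SCML1-207, held 4.41% and 4.71% of cytoplasmic counts in WT-res and ΔRS-res and 20.5% and 17.2% of whole-cell counts.

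RAI2, a retinoic acid-induced nuclear protein, lies 45.1 kb from SCML1 and is read towards it. It stood at 1.54, 1.82 and 1.70 CPM in WT-res cytoplasm and at 7.22, 8.43 and 5.01 CPM in ΔRS-res, and rose by 1.92 in whole-cell RNA (adjusted p = 0.0260). The 6 other genes within 1 Mb of it that reached the count had cytoplasmic log2 ratios from 0.05 (SCML2) to 0.73 (PPEF1), with a median of 0.24, and the nearest of them, NHS, had 0.34. GK, glycerol kinase, stood at 36.5, 29.3 and 39.2 CPM against 96.8, 101 and 133 CPM and rose by 1.79 (adjusted p = 0.00132). AMOT, the angiomotin of the Hippo pathway, stood at 57.0, 33.2 and 51.0 CPM against 115, 116 and 180 CPM and rose by 1.83 (SE 0.08, adjusted p = 0.000108). HDX, a homeobox protein, had a log2 fold change of 1.29 (adjusted p = 0.0413) without WT-res replicate 3, 0.29 with all 6 libraries (adjusted p = 0.894) and -0.10 without WT-res replicate 1, so that its direction rests on which library is left out. The others had, with all 6 libraries, 1.41 for RAI2, 0.64 for GK and 1.03 for AMOT.

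Long non-coding RNAs made up 6 of the 38, and several are uncertain. ENSG00000263244 lies inside HAPSTR1 on the same strand of chromosome 16. It stood at 14.4, 12.2 and 16.3 CPM in WT-res cytoplasm and at 0 in each ΔRS-res library, at least 591-fold lower. In whole-cell RNA it stood at 36.1, 28.0 and 30.6 CPM in WT-res and at 14.0, 13.6 and 26.9 CPM in ΔRS-res. Without WT-res replicate 3 its log2 fold change was -0.84 (adjusted p = 0.18), and -1.24 with the block (adjusted p = 0.00105). The block fit does not draw on ΔRS-res replicate 3, the ΔRS-res library nearest to WT-res. ENSG00000263244 was thus detected in every ΔRS-res whole-cell library. The reads of HAPSTR1, at 294 and 283 CPM in whole-cell WT-res replicates 1 and 2, could have been split with it. On chromosome 21, ENSG00000280441 and ENSG00000278996 were both higher in ΔRS-res, but a transcript of each, ENST00000651813 and ENST00000623664, had the same value in all 12 libraries, so that the 2 genes share part of their signal. ENST00000651813 held 55.7% and 76.7% of ENSG00000280441 in WT-res and ΔRS-res cytoplasm. In whole-cell RNA it held 17.0% in WT-res replicates 1 and 2 and 93.9% in ΔRS-res. ENSG00000278996 varied widely within a line. In whole-cell RNA it stood at 1.27 and 0 CPM in WT-res replicates 1 and 2 and at 9.22 CPM in the library labelled replicate 3. In ΔRS-res it stood at 27.75, 23.6 and 13.5 CPM. It was not called without the block (adjusted p = 0.053) and was called with it (adjusted p = 0.00828). ENSG00000269825, a coding entry that lies within ZNF83, stood at 4.86, 8.07 and 4.05 CPM in WT-res cytoplasm against 1.96, 1.97 and 0.917 CPM, and ZNF83 itself had a log2 ratio of -0.94. LINC00960, NIHCOLE and ENSG00000247134 were lower in ΔRS-res whole-cell RNA (adjusted p = 0.00824, 0.00923 and 0.0188). For these genes all 6 libraries gave log2 fold changes of -0.83 for ENSG00000263244, 1.70 for ENSG00000280441, 2.58 for ENSG00000278996, -1.66 for ENSG00000269825, -1.15 for LINC00960, -1.17 for NIHCOLE and -1.16 for ENSG00000247134.

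The genes beside the members differed little between the lines. Within 1 Mb of their starts, 35 had other genes that reached the count, 555 distinct genes in all. Their cytoplasmic log2 ratios had a median of 0.03 with quartiles at -0.10 and 0.13, and 2 of 555 exceeded 1 in size, a size that the choice itself required of the members. Beside HACD4, FOCAD had 0.01, KLHL9 0.10 and MTAP -0.08. Beside ZNF22, RASSF4 had -0.10 and DEPP1 0.27. The members lay on 17 chromosomes, and 8 had another member within 1 Mb, namely the histone pair, SCML1 with RAI2, HLA-DRB5 with HLA-DOA and the chromosome 21 pair.

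**Figure D3:**
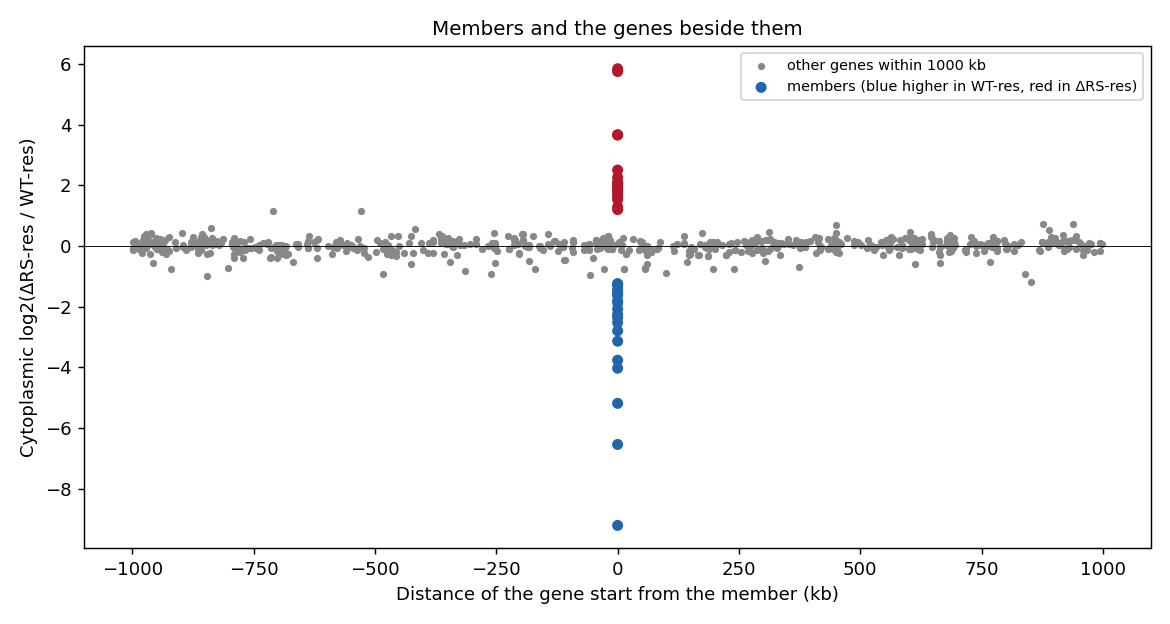
Cytoplasmic log2 ratio of ΔRS-res to WT-res for the 38 genes (large points at 0 kb, blue higher in WT-res, red higher in ΔRS-res) and for other genes within 1000 kb of a member's start (grey), by distance in kb. Grey points have quartiles at -0.10 and 0.13, and every member lies beyond 1 in size, as the choice required.

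The library that goes against its label was placed, gene by gene, on a log2 scale running from 0 at the mean of WT-res replicates 1 and 2 to 1 at the mean of ΔRS-res. Its median position over the 38 genes was 0.971, from 0.0621 for ENSG00000263244 to 1.51 for HDX, and it was nearer to ΔRS-res for 36 of 38, ENSG00000263244 and ZNF442 being the exceptions. The other whole-cell libraries were nearer to their own line for 37 or 38 of 38. Across all genes its closest library by Spearman correlation was ΔRS-res replicate 3 (0.987), followed by WT-res replicate 2 (0.985), ΔRS-res replicate 2 (0.983), WT-res replicate 1 (0.979) and ΔRS-res replicate 1 (0.978), so that the genome-wide order did not follow the lines as the 38 genes did. What placed this library there was not tested.

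**Figure D4:**
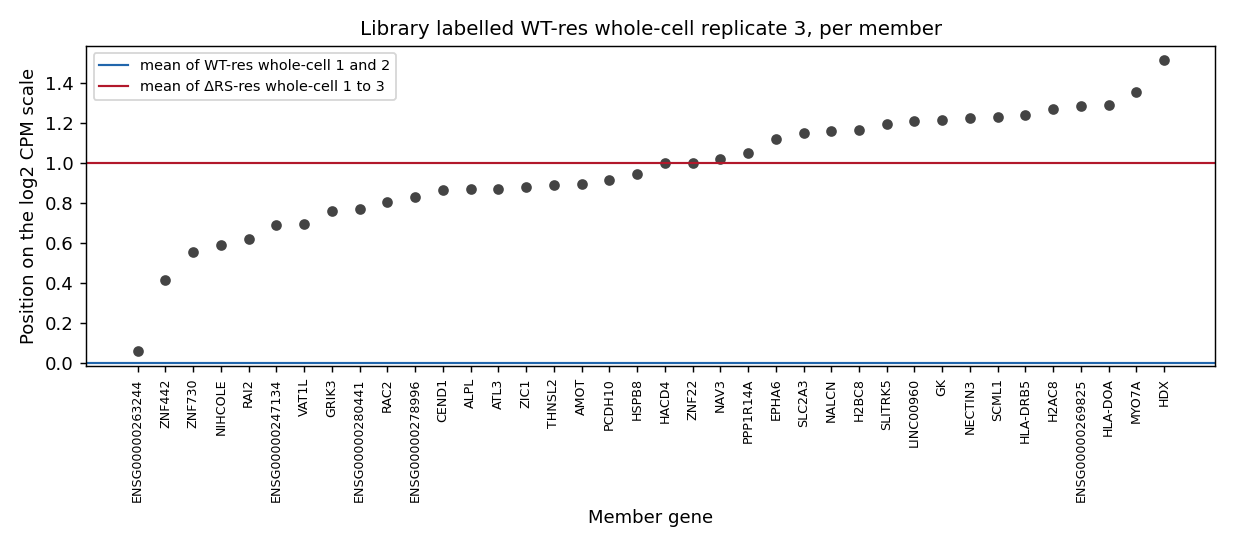
Position of whole-cell replicate 3 as labelled WT-res for each of the 38 genes (x axis), on a log2 CPM scale with 0 (blue line) at the mean of WT-res whole-cell replicates 1 and 2 and 1 (red line) at the mean of the 3 ΔRS-res whole-cell libraries. The median is 0.971, and 19 of 38 genes lie between 0.8 and 1.2.

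Cell type markers were looked at beside these results. The HEK293 list (PAX2, NEFL, NEFM, INA, VIM, KRT8, KRT18 and LHX1) was detected in every library, with VIM holding the most counts of the list. Its summed level was 1508 to 1530 CPM in WT-res and 1621 to 1741 CPM in ΔRS-res cytoplasm, and in whole-cell RNA 1246, 1243 and 1306 CPM in WT-res and 1430, 1422 and 1465 CPM in ΔRS-res. In whole-cell RNA 1 of 8 was called, KRT8, higher in ΔRS-res (log2 fold change 0.69, adjusted p = 0.00345), where 0.886% of all genes were called higher. With all 6 libraries KRT8 had 0.49 (adjusted p = 0.24). The fibroblast list, led by PDGFRA, summed to between 0.44 and 2.92 CPM, with 2 of 5 genes under 0.1 CPM on average. Of its 4 tested genes LUM, which encodes lumican, was called higher in ΔRS-res (log2 fold change 2.39, adjusted p = 0.0187, and 0.65 with all 6 libraries, adjusted p = 0.794), from 0.0775 and 0.0492 CPM in WT-res replicates 1 and 2 and 0.492 CPM in the library labelled replicate 3 to 0.379, 0.303 and 0.323 CPM. COL3A1, a fibrillar collagen of the same list, had the opposite sign (log2 fold change -0.90, adjusted p = 0.11). The lymphoid list, led by CD79A, summed to between 0.07 and 0.25 CPM, with 3 of 4 under 0.1 CPM. The HeLa list, led by CAV1, summed to 78.6 to 99.1 CPM and had 0 of 5 tested genes called. With the block in addition 4 of the HEK293, 2 of the HeLa, 2 of the fibroblast and 0 of the lymphoid markers were called, where 16.6% of all genes were. The HEK293 markers called were all higher in ΔRS-res (log2 fold change 0.22 for INA, 0.69 for KRT8, 0.71 for LHX1 and 0.34 for NEFL). Both HeLa markers called were lower (-0.65 for ANXA1 and -0.51 for CD44). The fibroblast pair was LUM, higher in ΔRS-res (2.39, adjusted p = 0.0111), and COL3A1, lower (adjusted p = 0.0360). No defining fibroblast or lymphoid marker was at 0 in every library. Their part in the members' differences was not tested. In bulk RNA, fewer cells that express a gene and less RNA per cell cannot be told apart.

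Near the threshold of 2 the choice was sharp by construction. Just inside stood AMOT (2.01), GRIK3 (2.01) and ENSG00000269825 (2.06), and just outside LINC00632 (1.9998), PHYHIPL (1.99) and RGS7BP (1.91), each of the latter higher in ΔRS-res. LINC00632 stood at 20.2, 13.5 and 15.6 CPM in WT-res cytoplasm and at 44.4, 40.4 and 61.1 CPM in ΔRS-res. Of the 38 genes, 21 had a mean cytoplasmic count under 300, where counting error is larger and adds to the spread between replicates.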

How the data were processed

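RNA-seq of 12 libraries was analysed. Per the paper and the labels, the authors trimmed reads with Trim Galore, aligned them to GRCh38 with STAR and quantified Ensembl 107 transcripts with RSEM in nf-core/rnaseq, and deposited expected counts per transcript without normalization. Versions of Trim Galore, STAR, RSEM and nf-core/rnaseq are not given in the sources used here. Transcripts were summed per gene (pandas 2.3.3, Python 3.11.15), positions came from GENCODE 44 (99.83% of genes matched), and CPM used column totals. For whole-cell RNA, expected counts were rounded, genes with a mean above 2 kept, and the lines compared with edgeR 4.0.16 (TMM, quasi-likelihood) in R 4.3.3, with Benjamini-Hochberg adjustment over all genes. On simulated data, 100 genes each were changed by 1 and 2 on the log2 scale, drawn from genes above a low-count limit. Of these, 56% and 90% were recovered among 26339 genes with 6 libraries. Without WT-res whole-cell replicate 3, 69% and 100% were recovered among 26278. Every simulated library followed its label. The shares for 6 libraries therefore do not describe the real 6, where 0 of 26793 genes were called. Of the genes simulated without a change, 11 were called with 6 libraries and 19 without WT-res whole-cell replicate 3.

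The members, gene lists and tests were chosen with earlier results of these data known. Named were HACD4, the 12 genes with the largest gap in either direction, members within 1 Mb of another, on a list or not separated in whole-cell RNA, the 3 nearest the threshold on either side, and the elongation genes. Other genes were named after their values were seen. The lists were fatty acid elongation, markers of HEK293, HeLa, fibroblast and lymphoid cells, imprinted genes, PGC-1α partners and targets, ZNF genes, clustered protocadherins, cancer-testis genes, HOX genes, matrix and adhesion genes, and solute carriers. A further list is not reported here.

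Replicates are consecutive passages of a line, so p-values measure the spread between passages of a clone. Same-numbered whole-cell libraries deviated together from their line's mean (Pearson r = 0.47, 0.455 and 0.624 over 15175 genes, the third with the library labelled WT-res replicate 3), and the numbers were taken to pair the samples. All library pairs within a group differed by more than counting noise (chi-square per gene of at least 18.1). Alternatives were other scalings and filters, DESeq2 1.42.0, the replicate block and each replicate left out. DESeq2 without WT-res whole-cell replicate 3 was added after seeing the data. Strand use in counting is not given in the sources used here.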

Additional observations from a re-analysis of the deposited data

How the results depend on the processing

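Limits: each line is a single clone, and WT-res keeps 2 whole-cell libraries once the one against its label is left out. In addition, 21 of the 38 genes had a mean cytoplasmic count under 300, where counting error adds more to the spread between replicates. The number of line-separating genes was 38 with TMM or DESeq2 size factors, 37 of them shared with the main choice (GRIK3 was lost), and 48 at a mean count of 50. It was 19 at a mean count of 200, 81 for a gap over 1.5, 18 for a gap over 3 and 162 with the 4 cytoplasmic libraries the study kept, of which 37 were shared (NAV3 was lost). With each cytoplasmic replicate left out it ranged from 35 to 45.

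In whole-cell RNA with all 6 libraries, 0 genes and 0 members were called by edgeR, and the same held with DESeq2 size factors and with filterByExpr. DESeq2's Wald test called 1062 genes and 17 members, and no filter on low counts 18 genes and 0 members. The replicate block called 2136 genes and 7 members. The block without WT-res whole-cell replicate 3, whose line difference rests on replicates 1 and 2, called 4444 and 38. DESeq2 without that library called 2446 and 36. With each whole-cell replicate left out, the genes called ranged from 0 to 602 (602 without WT-res replicate 1, 552 without WT-res replicate 3) and the members called from 0 to 33 (33 without WT-res replicate 3, 0 otherwise). Separation by more than 2 times held for 1 of the 38 with all 6 libraries, for 16 with any gap, and for 1 to 32 with each replicate left out (32 without WT-res replicate 3, 3 without ΔRS-res replicate 3). Of all genes with a mean whole-cell count of 100 or more, 0.0% were so separated with all 6 libraries and 25.4% did not overlap. Without WT-res replicate 3, 0.56% of them were separated by more than 2 times.

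Over 53 named genes and 687 values, the log2 fold change kept its sign in all but 22, and passed the threshold in 139 where it had not with all 6 libraries. Sign turns occurred when single whole-cell replicates were left out. Over those fits HDX ranged from -0.10 to 1.29, ELOVL1 from -0.063 to 0.22, HACD3 from -0.077 to 0.003, ELOVL3 from -0.79 to 0.22, ELOVL7 from -0.09 to 0.19, HACD1 from -0.31 to 0.13, HACD2 from -0.10 to 0.047, RGS7BP from -0.45 to 1.97 and HSD17B12 from -0.10 to 0.002. DESeq2 without WT-res whole-cell replicate 3 gave -0.058 for ELOVL1 and 0.13 for HACD1, also of the other sign. Of these genes, HDX is the member, and it was called without WT-res replicate 3. The cause was not tested.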

Other observations

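Gene groups, members included, were counted in whole-cell RNA after leaving out WT-res replicate 3. Over all genes 1.18% were called lower and 0.886% higher there. With all 6 libraries edgeR's quasi-likelihood test called 0 genes of any list. None of the 30 imprinted genes was called (20 tested), and 1 of 26 tested PGC-1α partners and targets was, CPT1A, the carnitine palmitoyltransferase of mitochondrial fatty acid import, which was higher in ΔRS-res (log2 fold change 0.68, adjusted p = 0.0153). Of 43 clustered protocadherins tested, 3 were called lower (PCDHB2, PCDHB5 and PCDHB8), with a median log2 fold change of -0.57. Of 38 HOX genes 4 were called lower, HOXD9, HOXD10, HOXD11 and HOXD13, which lie in the chromosome 2 stretch left out of the choice.

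Of 17 cancer-testis genes tested 1 was called lower, PRAME. Of 94 collagens, laminins, integrins and cadherins 2 were called lower and 1 higher (COL6A1, ITGA4 and ITGAV in all), ITGA4 and ITGAV lying in the chromosome 2 stretch. Of 274 solute carriers 2 were called lower and 6 higher, among them the member SLC2A3 and, in the chromosome 5 stretch, SLC12A7 and SLC9A3. Outside the stretches and members 1 was lower and 4 higher of 260, where 0.415% and 0.61% of all such genes were. Of the lymphoid markers 1 was tested and 0 were called. With the block in addition, which called 16.6% of all genes, 5 imprinted genes, 13 PGC-1α partners and targets, 7 clustered protocadherins, 9 HOX genes, 4 cancer-testis genes, 29 collagens, laminins, integrins and cadherins, 52 solute carriers and 177 ZNF genes were called.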
